A study of Saccharomyces cerevisiae with 8 samples.

Results

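The enzymes described here carry out glycolysis in Saccharomyces cerevisiae from glucose 6-phosphate isomerisation to pyruvate formation, and they are encoded by PGI1, PFK1, PFK2, FBA1, TPI1, TDH1, TDH2, TDH3, PGK1 and CDC19. The members were taken by gene name from the RNA-seq count tables, and all 10 names were found among 6600 protein-coding gene rows. All 10 passed the filter on low counts, a mean of at least 100 reads over the libraries, which 5527 genes passed. The mutase and enolase steps between PGK1 and CDC19 belong to a separate list of pathway genes that is given further on.

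Glycolysis splits a phosphorylated hexose into a pair of triose phosphates and oxidises these to pyruvate, with a net gain of ATP. In budding yeast its enzymes are among the most abundant proteins of the cell, and their genes are strongly transcribed under the activator Gcr1 with its partner Gcr2 and the DNA-binding protein Rap1. Some steps have several isoenzymes from duplicated genes: glyceraldehyde 3-phosphate dehydrogenase is encoded by TDH1, TDH2 and TDH3, of which TDH3 is the main form in growing cells and TDH1 is known for expression in slowly growing or stationary cells.

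RNA was measured in 4 evolved strains, each a clone that had been isolated from a glutamine-limited chemostat population and carries an amplification (copy number variant, CNV) around GAP1, the general amino acid permease gene, on chromosome XI. The strains were DGY1743 (ODIRA_B in the study), DGY1741 (ComQuad), DGY1735 (ODIRA_A) and DGY1726 (Trans), and the study describes a further CNV on chromosome V in DGY1726. All 4 share the FY4/S288C background and a fluorescent reporter with a KanMX marker, and by the study's account DGY1743 and DGY1741 were isolated after more generations of selection than DGY1735 and DGY1726. Each strain was grown in 2 replicate chemostats with 800 µM glutamine and glucose in excess at a doubling time of about 5.8 h, and harvested after 24 h of continuous culture. The ancestor was not analysed here, so that every comparison is between evolved strains, and with 1 clone per CNV structure the clone and its CNV cannot be told apart.

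The 8 libraries held 10298053 to 15326760 reads over all gene rows, and each member had between 3773 and 92901 reads in every library, so that the spread between cultures and not counting error limits the precision. Reads from the mitochondrial genome made up 13.2 and 19.2% of protein-coding counts in the DGY1743 libraries, against 0.0534 to 0.0957% in the libraries of the other strains. For this reason levels are given as CPM, counts divided by a library size that was scaled by the trimmed mean of M-values (TMM), and the tests were repeated with nuclear genes alone. FBA1 lies on chromosome XI, outside the segments that the study reports as amplified, and the other members lie on chromosomes other than V and XI.

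The members did not all differ between strains in the same way. TDH1, TDH2, TDH3 and PGK1, which encode consecutive steps, were lower in DGY1743 and DGY1741, isolated later, than in DGY1726, by 1.45 to 2.99-fold. PGI1, PFK1, PFK2, FBA1, TPI1 and CDC19 did not pass edgeR's test between DGY1741 and either of the strains isolated earlier, and all of them were at their lowest in DGY1743. DESeq2, run as an alternative, called PFK1 higher in DGY1741 than in DGY1726 (log2 ratio 0.25, adjusted p = 0.0421) and than in DGY1735 (log2 ratio 0.30, adjusted p = 0.0426), and TPI1 higher in DGY1741 than in DGY1726 (log2 ratio 0.26, adjusted p = 0.0335). Among the 4 strains, 9 of 10 members differed (edgeR quasi-likelihood test, Benjamini-Hochberg adjusted p under 0.05), against 47.3% of all tested genes. PGI1 did not pass (adjusted p = 0.168). TDH1, TDH2, TDH3 and PGK1 passed with adjusted p of 1.52e-05, 4.29e-04, 0.00148 and 0.00220, and each passed again whichever library was left out. For the other 5 genes the adjusted p lay between 0.0225 and 0.0495, and the count of 9 fell to 4 without DGY1726 replicate 2, DGY1741 replicate 1, DGY1741 replicate 2 or DGY1743 replicate 2, and to 5 without DGY1726 replicate 1.

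**Figure D1:**
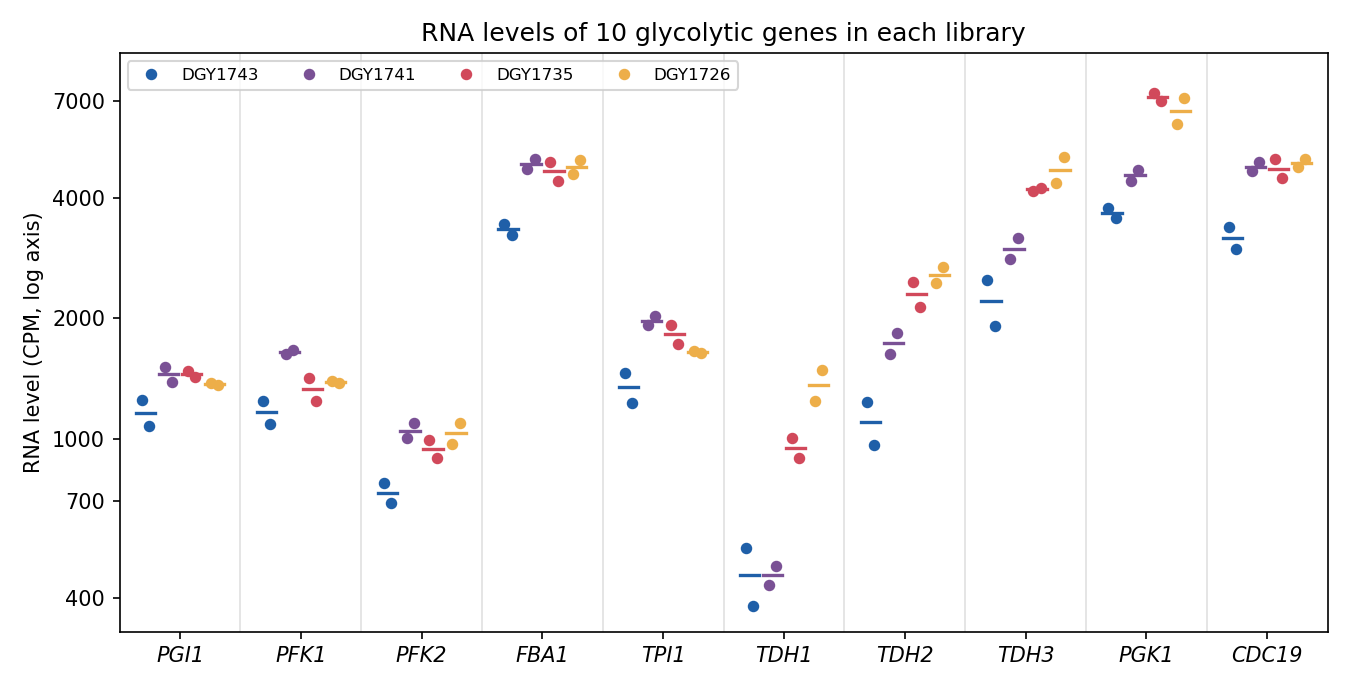
RNA level in CPM (log axis) of each gene in the order of the pathway, with a point for each library, a bar for the strain mean of 2 libraries, and a colour for each strain. For PFK2, FBA1, TPI1 and CDC19 the DGY1743 points lie apart from and below the rest, whereas for TDH1, TDH2, TDH3 and PGK1 both DGY1743 and DGY1741 lie below DGY1735 and DGY1726.

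PGI1 (YBR196C, chrII:612236-613900, minus strand) encodes phosphoglucose isomerase, which turns glucose 6-phosphate into fructose 6-phosphate. Its level was 1248 and 1080.5 CPM in DGY1743, 1512 and 1390.2 CPM in DGY1741, 1481 and 1426 CPM in DGY1735 and 1379 and 1361 CPM in DGY1726. The DGY1743 libraries were the lowest of the 8, and those of the other 3 strains lay within 1361 to 1512 CPM. No pair of strains differed in PGI1: its log2 ratio was -0.24 ± 0.16 (SE) in DGY1743 over DGY1726 (adjusted p = 0.286) and -0.33 ± 0.16 in DGY1743 over DGY1735 (adjusted p = 0.204).

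PFK1 (YGR240C, chrVII:970771-973734, minus strand) and PFK2 (YMR205C, chrXIII:671887-674766, minus strand) encode the alpha and beta subunits of phosphofructokinase, the enzyme that commits fructose 6-phosphate to glycolysis. PFK1 had 1241 and 1089 CPM in DGY1743, 1631 and 1669 CPM in DGY1741, 1419 and 1247 CPM in DGY1735 and 1400.0 and 1381 CPM in DGY1726. PFK2 had 776 and 693 CPM in DGY1743, 1006 and 1094 CPM in DGY1741, 995 and 897 CPM in DGY1735 and 973 and 1095 CPM in DGY1726. Both subunit genes were lowest in DGY1743, with no overlap with any other strain, and both fell in DGY1743 relative to DGY1741 (log2 ratio -0.50 ± 0.17, adjusted p = 0.0215 for PFK1; log2 ratio -0.51 ± 0.16, adjusted p = 0.00863 for PFK2). PFK2 was also lower in DGY1743 than in DGY1726 (log2 ratio -0.50 ± 0.15, adjusted p = 0.0178), whereas PFK1 did not pass that test (log2 ratio -0.26 ± 0.16, adjusted p = 0.242). In DGY1743 over DGY1735 neither passed, PFK1 with a log2 ratio of -0.20 (adjusted p = 0.439) and PFK2 with -0.37 (adjusted p = 0.124). For PFK1 the nearest libraries of these strains were almost level, at 1241 and 1247 CPM. PFK1 was highest in DGY1741, at 1649.8 ± 26.5 CPM against 1390.5 ± 13.5 CPM in DGY1726 (SD, n = 2 each), but the difference did not pass in edgeR (adjusted p = 0.0797). Per kilobase of coding sequence, PFK1 exceeded PFK2 in all 8 libraries, by 1.23 to 1.57 times. The enzyme holds both subunits in equal numbers.

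FBA1 (YKL060C, chrXI:326408-327487, minus strand) encodes fructose 1,6-bisphosphate aldolase, which cleaves the hexose into dihydroxyacetone phosphate and glyceraldehyde 3-phosphate. FBA1 was measured at 3447 and 3229 CPM in DGY1743, 4718 and 4989.7 CPM in DGY1741, 4930.4 and 4409.9 CPM in DGY1735 and 4591 and 4987 CPM in DGY1726. TPI1 (YDR050C, chrIV:555726-556472, minus strand) encodes triose phosphate isomerase, which interconverts these products, and it had 1462 and 1231 CPM in DGY1743, 1924 and 2024 CPM in DGY1741, 1924 and 1727 CPM in DGY1735 and 1661 and 1639 CPM in DGY1726. FBA1 in DGY1743 was below the lowest value of any other strain, but none of its pairs passed in edgeR, and the closest were DGY1743 over DGY1741 (log2 ratio -0.53 ± 0.21, adjusted p = 0.0502) and DGY1743 over DGY1726 (log2 ratio -0.53 ± 0.21, adjusted p = 0.0669). With mitochondrial genes left out of the fit both pairs passed, with log2 ratios of -0.53 (adjusted p = 0.0243) and -0.52 (adjusted p = 0.0404). DESeq2 called FBA1 lower in DGY1743 than in DGY1741 (log2 ratio -0.54, adjusted p = 1.28e-04). The same held over DGY1726 (log2 ratio -0.53, adjusted p = 7.46e-04) and over DGY1735 (log2 ratio -0.50, adjusted p = 0.00766). TPI1 was lower in DGY1743 than in DGY1741 (log2 ratio -0.55 ± 0.18, adjusted p = 0.0131) and its level in DGY1741 was above both DGY1726 libraries, a difference that did not pass in edgeR (log2 ratio 0.26 ± 0.11, adjusted p = 0.0680).

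The TDH isoforms catalyse the same step, the oxidation of glyceraldehyde 3-phosphate to 1,3-bisphosphoglycerate, and were measured separately. TDH1 lies at chrX:338271-339269 (YJL052W, plus strand), TDH2 at chrX:453683-454681 (YJR009C, minus strand) and TDH3 at chrVII:882812-883810 (YGR192C, minus strand) of the R64 genome, each a coding sequence of 999 bases without an intron. TDH2 and TDH3 are identical at 95.8% of positions, TDH1 and TDH2 at 90.2%, and TDH1 and TDH3 at 88.9%. Bases 64 to 123 of the coding sequences, counted from the first base of the start codon, are shown because this is the window of 60 bases in which TDH2 and TDH3 differ most. Capitals mark the bases that differ from TDH3, 17 in TDH1 and 12 in TDH2.
TDH1: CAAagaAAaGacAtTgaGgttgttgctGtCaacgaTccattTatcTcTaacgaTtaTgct
TDH2: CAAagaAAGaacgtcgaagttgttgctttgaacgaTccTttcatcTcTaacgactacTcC
TDH3: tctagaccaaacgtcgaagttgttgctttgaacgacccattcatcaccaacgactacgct

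In other stretches a read of 50 bases is the same in several isoforms. The longest stretch that TDH2 and TDH3 share without a mismatch is 173 bases, from base 355 to base 527, and TDH1 differs from it at 18 positions, given in capitals. The last 92 bases of the stretch, from base 436, are the same in all 3 isoforms.
TDH1: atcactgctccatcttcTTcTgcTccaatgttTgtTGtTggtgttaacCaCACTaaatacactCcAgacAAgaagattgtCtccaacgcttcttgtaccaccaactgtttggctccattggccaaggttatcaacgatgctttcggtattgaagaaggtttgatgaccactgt
TDH2 and TDH3: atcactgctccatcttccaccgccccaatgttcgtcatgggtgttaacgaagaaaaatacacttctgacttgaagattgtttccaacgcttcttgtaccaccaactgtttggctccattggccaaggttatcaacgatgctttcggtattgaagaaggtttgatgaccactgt

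Of all stretches of 50 bases, 15.7% of those in TDH1, 31.3% of those in TDH2 and 24.4% of those in TDH3 occur in another isoform, and none of those in the other 7 members occurs elsewhere in the genome. The treatment of reads that align equally well to several places is not given in the sources used here, so the isoform levels below are uncertain by the shared reads.

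TDH1 had 534 and 383 CPM in DGY1743, 433 and 482 CPM in DGY1741, 1006 and 897 CPM in DGY1735 and 1247 and 1489 CPM in DGY1726. The DGY1743 and DGY1741 libraries overlapped each other and lay below those of DGY1735, which lay below those of DGY1726. TDH1 was 2.99-fold lower in DGY1743 than in DGY1726 (log2 ratio -1.58 ± 0.17, adjusted p = 6.08e-07) and 2.98-fold lower in DGY1741 than in DGY1726 (log2 ratio -1.58 ± 0.12, adjusted p = 4.17e-09). These were the largest differences of any member. Against DGY1735, TDH1 was 2.08-fold lower in DGY1743 (log2 ratio -1.06 ± 0.19, adjusted p = 0.00974) and 2.06-fold lower in DGY1741 (log2 ratio -1.04 ± 0.14, adjusted p = 4.96e-05). Between the strains isolated earlier, DGY1735 and DGY1726, TDH1 did not pass (log2 ratio -0.52 ± 0.14, adjusted p = 0.136), nor between DGY1743 and DGY1741 (log2 ratio 0.01 ± 0.14, adjusted p = 0.975).

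TDH2 had 1239 and 964 CPM in DGY1743, 1635 and 1841 CPM in DGY1741, 2464 and 2134 CPM in DGY1735 and 2447 and 2685 CPM in DGY1726. TDH3 had 2499 and 1918 CPM in DGY1743, 2812 and 3169 CPM in DGY1741, 4173 and 4238 CPM in DGY1735 and 4368 and 5048 CPM in DGY1726. With the counts as deposited, the strains stood in both genes in the order DGY1743, DGY1741, DGY1735 and DGY1726 by mean level, and the DGY1743 and DGY1741 libraries did not overlap those of DGY1735 or DGY1726. TDH2 was lower than in DGY1726 by 2.34-fold in DGY1743 (log2 ratio -1.23 ± 0.18, adjusted p = 3.68e-05) and by 1.47-fold in DGY1741 (log2 ratio -0.56 ± 0.12, adjusted p = 7.48e-04). TDH3 was lower than in DGY1726 by 2.14-fold in DGY1743 (log2 ratio -1.10 ± 0.21, adjusted p = 5.98e-04) and by 1.57-fold in DGY1741 (log2 ratio -0.65 ± 0.12, adjusted p = 2.17e-04). Between DGY1743 and DGY1741, TDH2 was lower in DGY1743 (log2 ratio -0.65 ± 0.17, adjusted p = 0.00144), and TDH3 had a ratio of the same sign that did not pass in edgeR (log2 ratio -0.43 ± 0.20, adjusted p = 0.0928). TDH3 passed there in DESeq2 (log2 ratio -0.43, adjusted p = 0.0229) and in edgeR without DGY1743 replicate 1 (log2 ratio -0.63, adjusted p = 3.13e-04).

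Because the isoforms are measured in the same library, their ratios do not depend on how libraries are scaled. The log2 ratio of TDH1 over TDH3 averaged -2.27 ± 0.07 in DGY1743, -2.71 ± 0.01 in DGY1741, -2.15 ± 0.13 in DGY1735 and -1.79 ± 0.03 in DGY1726 (SD, n = 2 each). It differed among the strains (exact permutation test of the F statistic, p = 0.0190, 0.0429 after adjustment over 3 isoform ratios), with 0.00952 as the smallest p that the possible assignments of libraries to strains allow. The log2 ratio of TDH1 over TDH2 averaged -1.27 ± 0.08 in DGY1743, -1.92 ± 0.01 in DGY1741, -1.27 ± 0.03 in DGY1735 and -0.91 ± 0.09 in DGY1726 and differed as well (exact permutation p = 0.0286, adjusted p = 0.0429). TDH1 was thus lowest relative to each of the other isoforms in DGY1741 and highest in DGY1726. The log2 ratio of TDH2 over TDH3 was -1.01 and -0.99 in DGY1743, -0.78 and -0.78 in DGY1741, -0.76 and -0.99 in DGY1735 and -0.84 and -0.91 in DGY1726, and the strains did not pass (exact permutation p = 0.229). The DGY1735 libraries lay far apart, and the exact permutation p was 0.0190 without DGY1735 replicate 1 and 0.0286 without DGY1735 replicate 2.

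As a share of all TDH counts, TDH1 made up 12.5 and 11.7% in DGY1743, 8.87 and 8.78% in DGY1741, 13.2 and 12.3% in DGY1735 and 15.5 and 16.1% in DGY1726. TDH3 made up the largest share in every library, between 54.2 and 58.7%. To see how far shared reads matter, counts were also solved for each isoform on the assumptions that a shared read was counted in every isoform that holds it and that coverage is even, an alternative chosen after the data had been seen. The solved share of TDH1 was 7.18 and 6.01% in DGY1743, 1.36 and 1.23% in DGY1741, 7.75 and 6.90% in DGY1735 and 11.3 and 12.4% in DGY1726. The order of the strains stayed the same, but the difference in the TDH1 over TDH3 log2 ratio between DGY1726 and DGY1741 became 3.29, against 0.92 from the counts as deposited, and that of TDH1 over TDH2 became 3.55, against 1.01. For TDH2 over TDH3, the difference between DGY1741 and DGY1743 became 0.49, against 0.22.

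In levels, the solved TDH1 was 229 and 146 CPM in DGY1743, 49.3 and 50.1 CPM in DGY1741, 441 and 374 CPM in DGY1735 and 681 and 857 CPM in DGY1726. On these values TDH1 differed by a log2 ratio of 1.92 in DGY1743 over DGY1741, where the counts as deposited gave 0.01. It had a log2 ratio of -3.95 in DGY1741 over DGY1726 and of -2.03 in DGY1743 over DGY1726. The solved TDH2 was 636 and 506 CPM in DGY1743, 1001 and 1128 CPM in DGY1741, 1473 and 1115 CPM in DGY1735 and 1370.1 and 1421 CPM in DGY1726, so that its DGY1741 and DGY1735 libraries overlapped, which they did not with the counts as deposited. Its solved log2 ratio was -0.39 in DGY1741 over DGY1726 and -1.29 in DGY1743 over DGY1726. TDH3 moved little, with a solved log2 ratio of -0.66 in DGY1741 over DGY1726 and of -1.07 in DGY1743 over DGY1726. The direction of the fall of TDH1 below DGY1726 was the same with both sets of counts, whereas its size, and whether DGY1743 and DGY1741 had similar levels, depended on the shared reads. The assumptions themselves were not tested.

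**Figure D2:**
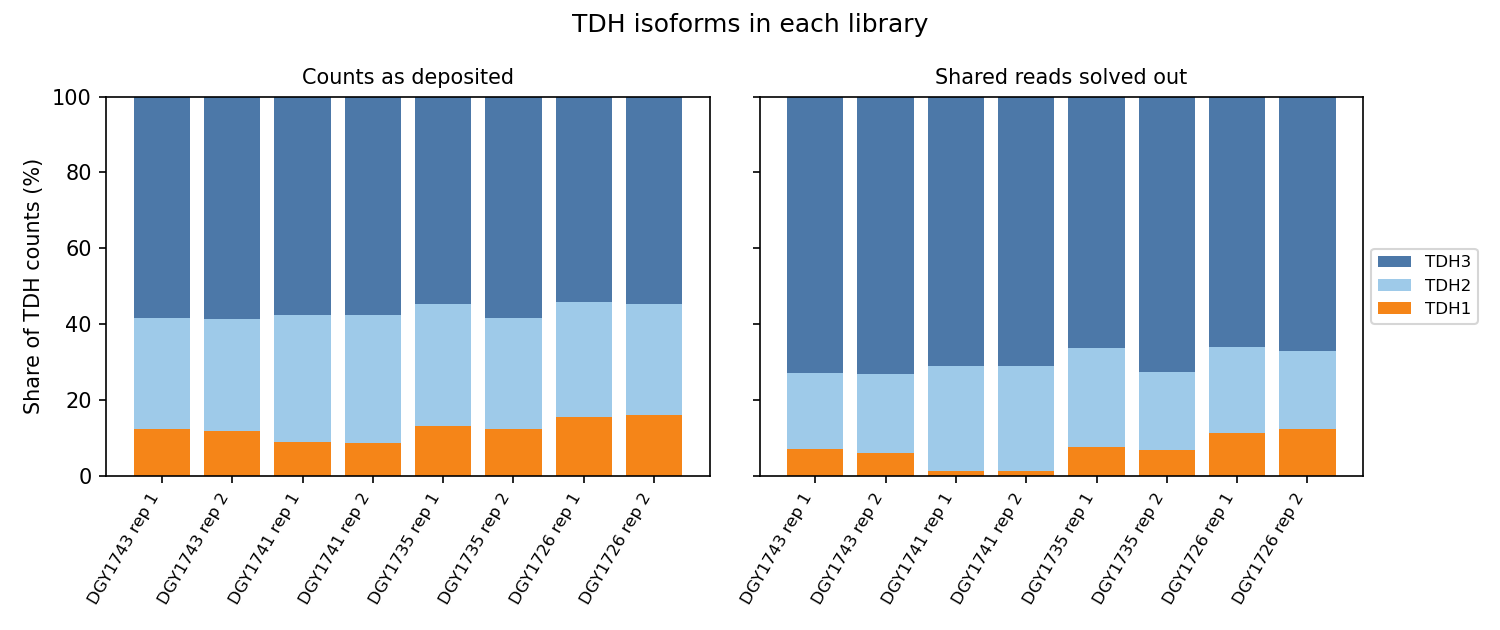
Share of TDH counts (%) held by TDH1, TDH2 and TDH3 in each library, stacked to the whole, from the counts as deposited (left) and after reads shared between isoforms were solved out (right). TDH1 is the smallest share in every library and is smallest in DGY1741, at 8.87 and 8.78% as deposited and at 1.36 and 1.23% when solved.

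PGK1 (YCR012W, chrIII:137746-138996, plus strand) encodes phosphoglycerate kinase, which makes the first ATP of the lower pathway from 1,3-bisphosphoglycerate. PGK1 was measured at 3768 and 3558 CPM in DGY1743, 4409.7 and 4694 CPM in DGY1741, 7300.4 and 6973 CPM in DGY1735 and 6117 and 7099.8 CPM in DGY1726, and an opposite-strand reading frame, YCR013C, overlaps it. The DGY1743 and DGY1741 libraries did not overlap those of DGY1735 and DGY1726. PGK1 was lower than in DGY1726 by 1.81-fold in DGY1743 (log2 ratio -0.86 ± 0.22, adjusted p = 0.00687) and by 1.45-fold in DGY1741 (log2 ratio -0.54 ± 0.12, adjusted p = 0.00117). Against DGY1735, PGK1 was 1.96-fold lower in DGY1743 (log2 ratio -0.97 ± 0.24, adjusted p = 0.0341) and 1.55-fold lower in DGY1741 (log2 ratio -0.64 ± 0.17, adjusted p = 0.0112). The DGY1743 over DGY1735 difference did not pass with any 1 of its 4 libraries left out (adjusted p between 0.0509 and 0.202). The DGY1743 and DGY1741 levels did not pass the test against each other (log2 ratio -0.31 ± 0.21, adjusted p = 0.315).

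CDC19 (YAL038W, chrI:71786-73288, plus strand) encodes the main pyruvate kinase, which forms pyruvate and ATP at the end of the pathway. CDC19 had 3376 and 2984 CPM in DGY1743, 4658 and 4903 CPM in DGY1741, 4993 and 4476 CPM in DGY1735 and 4789 and 4998 CPM in DGY1726. Its pattern was that of FBA1 and not that of its neighbours in the lower pathway: the libraries of DGY1741, DGY1735 and DGY1726 overlapped, and DGY1743 was below them all. CDC19 was lower in DGY1743 than in DGY1726 (log2 ratio -0.63 ± 0.21, adjusted p = 0.0310) and than in DGY1741 (log2 ratio -0.58 ± 0.21, adjusted p = 0.0292). Against DGY1735 it did not pass in edgeR (log2 ratio -0.58 ± 0.23, adjusted p = 0.118) but passed in DESeq2 (log2 ratio -0.59, adjusted p = 0.00157).

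Counted by pair, DGY1743 had the most members below another strain. In DGY1743 over DGY1726, 6 of 10 members fell (TDH1, TDH2, TDH3, PGK1, CDC19 and PFK2) and none rose, against 13.8% of all tested genes that were lower, and the median log2 ratio was -0.58 over the members and -0.01 over all tested genes. All 10 members had both DGY1743 libraries below both DGY1726 libraries. How many of all tested genes separate in this way was not counted, here or in the pairs below. Such counts therefore describe the members and do not set them apart from other genes. Without DGY1726 replicate 1 or replicate 2, 3 members passed (TDH1, TDH2 and TDH3), and with nuclear genes alone 7 passed, FBA1 in addition. In DGY1743 over DGY1735, TDH1, TDH2, TDH3 and PGK1 fell (4 of 10, against 6.4% of tested genes that were lower; median over the members -0.54), and again all 10 members lay below with no overlap. Without DGY1743 replicate 1 the log2 ratios were -1.26 for TDH2, -1.14 for TDH3 and -1.01 for PGK1, against -1.07, -0.94 and -0.97 with all libraries. Without DGY1743 replicate 2 they were -0.89, -0.75 and -0.92, and TDH1 had -0.83. Fewer members passed in either fit, but each leaves a single DGY1743 library, so a lost call does not show that the difference rests on the culture left out.

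In DGY1743 over DGY1741, PFK1, PFK2, TPI1, TDH2 and CDC19 fell (5 of 10, against 10.3% of tested genes that were lower; median over the members -0.50), and 9 members lay below with no overlap, TDH1 being the exception. With single libraries left out, the log2 ratio ranged from -0.59 to -0.39 for PFK1, -0.59 to -0.41 for PFK2 and -0.67 to -0.41 for TPI1. It ranged from -0.84 to -0.47 for TDH2 and from -0.67 to -0.48 for CDC19. The count of members that passed moved more, but such a fit leaves a single library for a strain, so a changed count does not show dependence on the culture left out. The mitochondrial share stood apart in DGY1743 in these 3 comparisons, and with nuclear genes alone 7, 4 and 6 members passed against DGY1726, DGY1735 and DGY1741. These counts have no share of all tested genes beside them. The part of the mitochondrial share in the DGY1743 differences was not tested further.

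In DGY1741 over DGY1726, TDH1, TDH2, TDH3 and PGK1 fell (4 of 10, against 22.0% of tested genes that were lower), and these 4 genes had no overlap between the strains. In either direction 43.2% of tested genes passed, a share near that of the members. The other 6 members had log2 ratios between -0.03 (CDC19) and 0.26 (TPI1), and the median over all 10 was -0.00. The count stayed at 4 whichever of its libraries was left out, whereas DESeq2 called 6, PFK1 and TPI1 being higher in DGY1741. In DGY1741 over DGY1735, TDH1, TDH3 and PGK1 fell (3 of 10, against 18.2% of tested genes that were lower and 38.5% that passed in either direction). TDH2 lay below without overlap but did not pass in edgeR (log2 ratio -0.39 ± 0.16, adjusted p = 0.0633). DESeq2 called TDH2 lower there (log2 ratio -0.41, adjusted p = 0.00617). Only TDH1 passed without DGY1741 replicate 1 or DGY1741 replicate 2. In DGY1735 over DGY1726, 0 members passed in edgeR, against 1.76% of tested genes, 1 had an unadjusted p under 0.05 (TDH1), and DESeq2 called 1 (TDH1, adjusted p = 0.0189). Without DGY1735 replicate 1, TDH1 passed in edgeR with a log2 ratio of -0.60 and adjusted p of 0.0296.

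**Figure D3:**
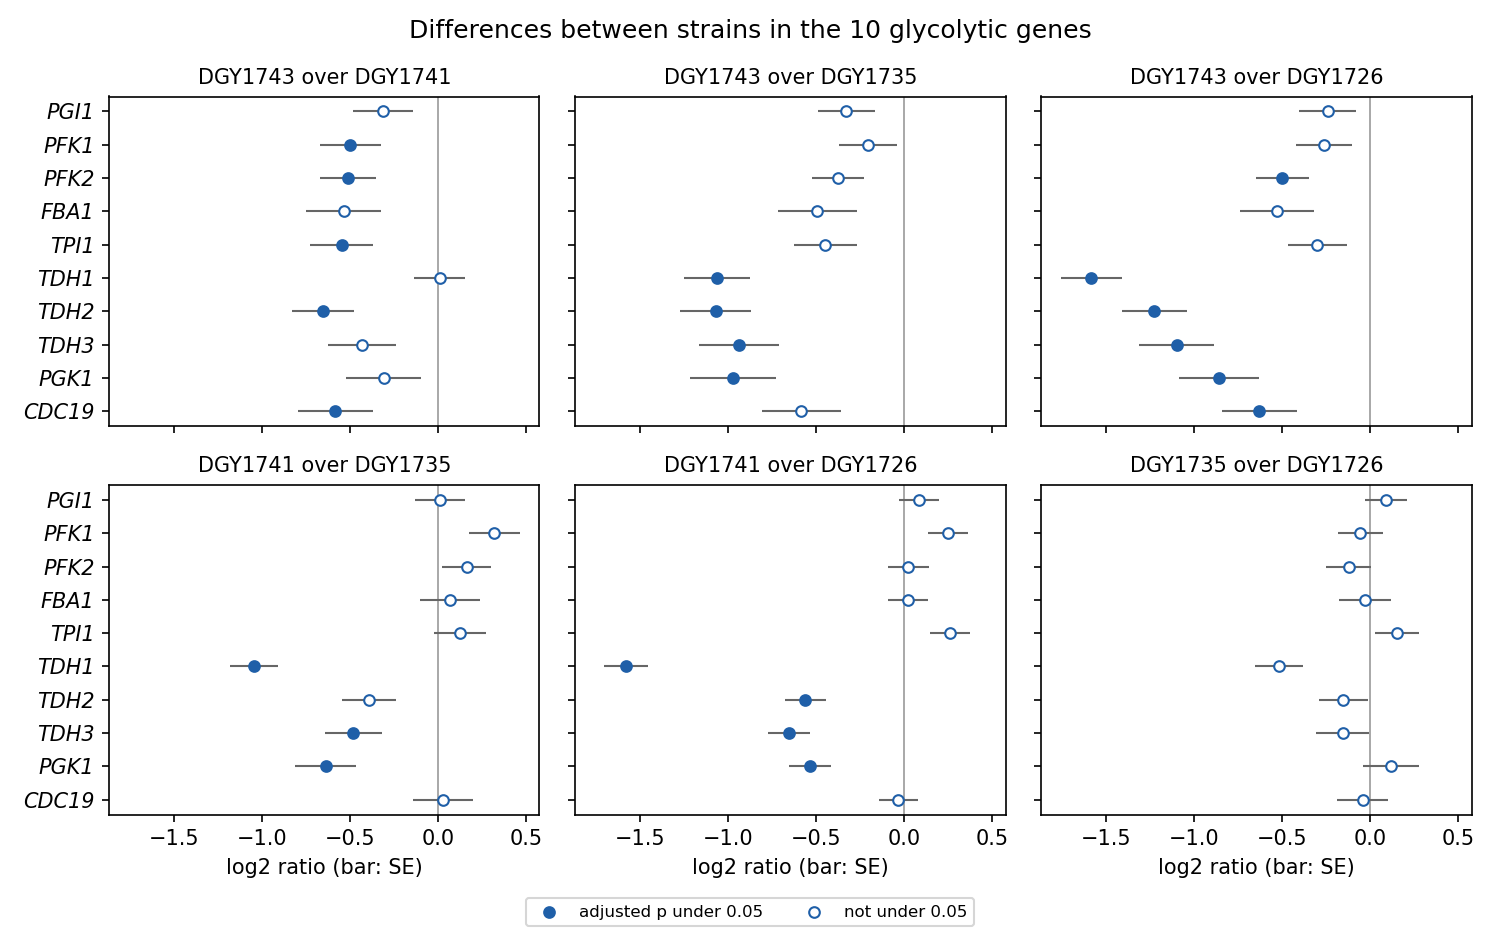
Log2 ratio of each member (rows, in the order of the pathway) in the 6 pairs of strains, with bars of 1 standard error and filled points for adjusted p under 0.05. In DGY1741 over DGY1726 the filled points are TDH1 at -1.58, TDH3 at -0.65, TDH2 at -0.56 and PGK1 at -0.54, and in DGY1743 over DGY1741 they are TDH2 at -0.65, CDC19 at -0.58, TPI1 at -0.55, PFK2 at -0.51 and PFK1 at -0.50.

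Set together, DGY1743 and DGY1741, the strains isolated later, had lower TDH1, TDH2, TDH3 and PGK1 than DGY1735 and DGY1726, the strains isolated earlier. TDH1 was 2.49-fold lower (log2 ratio -1.32 ± 0.12, adjusted p = 4.11e-06), TDH2 1.76-fold (log2 ratio -0.81 ± 0.12, adjusted p = 1.62e-04), TDH3 1.73-fold (log2 ratio -0.79 ± 0.13, adjusted p = 3.66e-04) and PGK1 1.68-fold (log2 ratio -0.75 ± 0.12, adjusted p = 4.47e-04). These were 4 of 10 members, against 23.1% of tested genes that were lower and 24.0% that were higher. The other 6 had log2 ratios between -0.30 (CDC19, adjusted p = 0.0515) and 0.03 (PFK1). CDC19 lay at the threshold: it passed with nuclear genes alone (log2 ratio -0.30, adjusted p = 0.0393), with coding-sequence rows (log2 ratio -0.31, adjusted p = 0.0378), without the filter on low counts (log2 ratio -0.32, adjusted p = 0.0470), with DESeq2's size factors in edgeR (log2 ratio -0.31, adjusted p = 0.0495) and in DESeq2 itself (log2 ratio -0.31, adjusted p = 0.00117). With single libraries left out its adjusted p ranged between 0.0336 and 0.163. DESeq2 called FBA1 as well (log2 ratio -0.24, adjusted p = 0.0131). With 2 strains on each side, time of isolation and strain cannot be told apart, and the libraries of a strain share its clone, so that these p-values measure the spread between cultures.

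The members together took 2.09 and 1.83% in DGY1743, 2.53 and 2.74% in DGY1741, 3.15 and 3.02% in DGY1735 and 3.01 and 3.29% in DGY1726 of the counts of nuclear protein-coding genes. The share averaged 1.96 ± 0.183% in DGY1743 and 3.15 ± 0.199% in DGY1726 (SD, n = 2 each), and the 4 strains differed (exact permutation test of the F statistic, p = 0.0286). Both DGY1743 libraries lay below those of DGY1741, which lay below those of DGY1735 and DGY1726, and these last overlapped. Without DGY1741 replicate 1 the exact permutation p was 0.0667.

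Per kilobase of coding sequence, the scale on which genes can be set beside each other, the members spanned from 327 CPM per kb (PFK2) to 4388 CPM per kb (PGK1), as means over the 8 libraries. Between them stood FBA1 (4086 CPM per kb), TDH3 (3532 CPM per kb), CDC19 (2925 CPM per kb), TPI1 (2274 CPM per kb), TDH2 (1928 CPM per kb), PGI1 (817 CPM per kb), TDH1 (809.8 CPM per kb) and PFK1 (467 CPM per kb). With the counts as deposited, only 3 neighbours in this order kept it in all 8 libraries: CDC19 above TPI1, TDH2 above PGI1, and PFK1 above PFK2. For the others the order turned with the strain. PGK1 stood at 2928 CPM per kb in DGY1743 and 3639 CPM per kb in DGY1741, and FBA1 at 3091 and 4494 CPM per kb in the same strains. In DGY1735 and DGY1726, PGK1 was above FBA1 in both libraries of each strain, at 5705 and 5282 CPM per kb against 4324 and 4434 CPM per kb. Likewise TDH3 was above CDC19 in both libraries of DGY1735 and DGY1726 only, and TDH1 was above PFK1 without overlap in those strains only. The places of TDH1 and TDH2 in this order depended on the shared reads. With the solved counts TDH2 had 636 and 506 CPM per kb in DGY1743, below PGI1 at 749.8 and 649 CPM per kb in the same libraries. The solved TDH1 had 442 and 375 CPM per kb in DGY1735, below PFK1 at 479 and 421 CPM per kb, and it was above PFK1 in DGY1726 only.

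Across the 8 libraries, Pearson's r of log2 CPM between members was between 0.03 (PFK1 and TDH1) and 0.99 (FBA1 and CDC19). The libraries come in replicate pairs and share their scaling, so these values are descriptive. TDH2 and TDH3 (r = 0.98, in part through shared reads) and TDH3 and PGK1 (r = 0.95) were close, whereas TPI1 and TDH1 (r = 0.20) and PFK1 and PGK1 (r = 0.21) were not. Outside the pathway members, the 5 tested genes whose log2 CPM was most like the mean standardised pattern of the 10 were EGD1 (r = 0.98), ATO3 (r = 0.97), ADH1 (r = 0.96), ADH2 (r = 0.96) and YNR021W (r = 0.96). EGD1 encodes a subunit of the nascent polypeptide-associated complex, and ATO3 a plasma membrane transporter of the ammonium and acetate family. ADH1, the main alcohol dehydrogenase of ethanol formation, had 3517 and 3306 CPM in DGY1743, 5926 and 5948 CPM in DGY1741, 6211 and 5286 CPM in DGY1735 and 5335 and 5760.3 CPM in DGY1726. ADH1 was, as CDC19 was, low in both DGY1743 libraries, and 14.0% of its 50-base stretches occur elsewhere in the genome, as do 14.0% of those of its paralogue ADH2. Most like TDH1 alone were RPL36B (r = 0.99), NCA3 (r = 0.98) and RPS11A (r = 0.98), of which RPL36B and RPS11A encode cytosolic ribosomal proteins. NCA3 followed TDH1 at a much lower level, with 6.27 and 6.19 CPM in DGY1743, 5.60 and 9.22 CPM in DGY1741, 44.0 and 38.4 CPM in DGY1735 and 86.6 and 126 CPM in DGY1726.

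Other genes of the pathway were taken from lists by role. Of hexose phosphorylation, the step ahead of PGI1, HXK1 and HXK2 encode hexokinases and GLK1 a glucokinase, and 2 of 3 differed among the 4 strains (HXK1 and HXK2), against 47.3% of all tested genes. HXK2 had 571 and 561 CPM in DGY1743, 764 and 683 CPM in DGY1741, 392 and 316 CPM in DGY1735 and 369 and 356 CPM in DGY1726. Every DGY1743 and DGY1741 library was above every DGY1735 and DGY1726 library, and HXK2 rose in the strains isolated later (log2 ratio 0.84 ± 0.09, adjusted p = 1.79e-05), while HXK1 (log2 ratio -0.58 ± 0.13, adjusted p = 0.00294) and GLK1 (log2 ratio -0.28 ± 0.08, adjusted p = 0.0173) fell. By pair, HXK1 did not pass in DGY1741 over DGY1726 (adjusted p = 0.150) or over DGY1735 (adjusted p = 0.0714), and passed in both DGY1743 pairs. GLK1 passed in none of the 4 pairs of a later and an earlier isolate (adjusted p between 0.0832 and 0.209). HXK1 and GLK1 each overlap another gene row on the same strand, whose reads are counted in both.

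Of the remaining lower steps, all 6 genes differed among the 4 strains, against 47.3% of all tested genes. In the strains isolated later 4 of the 6 fell and 1 rose, against 23.1% of tested genes that were lower and 24.0% that were higher. ENO1, an enolase that converts 2-phosphoglycerate to phosphoenolpyruvate, had 1639 and 1154 CPM in DGY1743, 1725 and 1837 CPM in DGY1741, 2752 and 2454 CPM in DGY1735 and 2524 and 2568 CPM in DGY1726. ENO1 was lower in both strains isolated later (log2 ratio -0.71 ± 0.12, adjusted p = 6.76e-04), although 23.6% of its 50-base stretches are shared with ENO2. GPM2 fell (log2 ratio -0.46 ± 0.08, adjusted p = 6.40e-04) and GPM3 rose (log2 ratio 0.48 ± 0.08, adjusted p = 5.30e-04). Both are homologues of the phosphoglycerate mutase gene GPM1 with no clear role in glycolysis. Of the 4 pairs of a later and an earlier isolate, GPM3 passed only in those with DGY1741 (log2 ratio 0.71 over DGY1726 and 0.66 over DGY1735). In DGY1743 its log2 ratio was 0.32 over DGY1726 (adjusted p = 0.126) and 0.25 over DGY1735 (adjusted p = 0.187). GPM2 passed in these pairs except DGY1741 over DGY1726 (log2 ratio -0.29, adjusted p = 0.0502). PYK2, a pyruvate kinase paralogue of CDC19 that is active without fructose 1,6-bisphosphate, did not pass between later and earlier isolates (log2 ratio -0.07 ± 0.08, adjusted p = 0.490). It was highest in DGY1726, at 87.3 and 86.2 CPM. Over DGY1726 it was lower in DGY1735 (log2 ratio -0.56, adjusted p = 0.0373) and in DGY1741 (log2 ratio -0.33, adjusted p = 0.0318). In DGY1743 over DGY1726 it did not pass (log2 ratio -0.38, adjusted p = 0.0522). GPM1 (log2 ratio -0.45 ± 0.11, adjusted p = 0.00499) and the other enolase ENO2 (log2 ratio -0.60 ± 0.14, adjusted p = 0.00406), named here after their values had been seen, also fell in the strains isolated later. GPM1 passed in none of the 4 pairs of a later and an earlier isolate (adjusted p between 0.0519 and 0.102). ENO2 passed against DGY1726 but not against DGY1735, in DGY1741 (log2 ratio -0.26, adjusted p = 0.223) or in DGY1743 (log2 ratio -0.83, adjusted p = 0.0622).

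**Figure D4:**
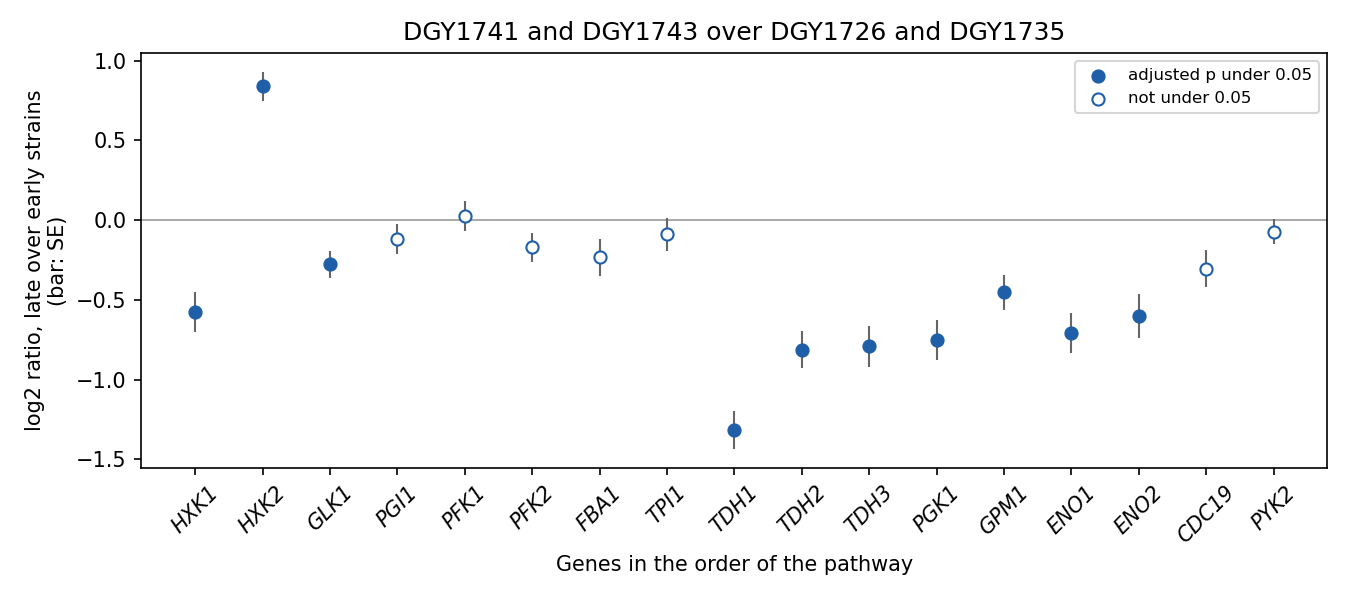
Log2 ratio of DGY1741 and DGY1743 over DGY1726 and DGY1735 for glycolytic genes in the order of the pathway, with bars of 1 standard error and filled points for adjusted p under 0.05. HXK2 stands above 0 at 0.84, PGI1, PFK1, PFK2, FBA1 and TPI1 lie between -0.23 and 0.03, and TDH1 (-1.32) to ENO2 (-0.60) lie below.

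Fructose bisphosphate control was represented by PFK26, PFK27 and FBP26, which make and remove fructose 2,6-bisphosphate, and by FBP1, the gluconeogenic phosphatase, which was too low for the test. Of the 3 tested, 2 differed among the strains (PFK26 and FBP26), against 47.3% of all tested genes, and PFK26 fell in the strains isolated later (log2 ratio -0.41 ± 0.08, adjusted p = 0.00146). PFK26 passed in DGY1741 over DGY1726 (log2 ratio -0.40, adjusted p = 0.00907) and over DGY1735 (log2 ratio -0.57, adjusted p = 0.00274). It did not pass in DGY1743 over DGY1726 (log2 ratio -0.24, adjusted p = 0.158) or over DGY1735 (log2 ratio -0.42, adjusted p = 0.0502). FBP26 had 219.5 and 285 CPM in DGY1743, 174 and 158 CPM in DGY1741, 184 and 189 CPM in DGY1735 and 148 and 174 CPM in DGY1726, and it was higher in DGY1743 than in DGY1741 (log2 ratio 0.60 ± 0.14, adjusted p = 8.43e-05). Of the transcription factors, 3 of 4 differed among the strains (GCR1, RAP1 and TYE7), against the same 47.3%, and GCR2, which overlaps another row on its strand, did not. TYE7, a helix-loop-helix activator of glycolytic genes, had 77.2 and 90.0 CPM in DGY1743, 75.4 and 97.2 CPM in DGY1741, 142 and 115 CPM in DGY1735 and 134 and 159.6 CPM in DGY1726. Its DGY1743 and DGY1741 libraries lay below those of DGY1735 and DGY1726 (log2 ratio -0.69 ± 0.11, adjusted p = 3.31e-04), and GCR1 fell in the same comparison (log2 ratio -0.33 ± 0.09, adjusted p = 0.0108). By pair, GCR1 passed only against DGY1726, in DGY1743 (log2 ratio -0.63, adjusted p = 6.91e-04) and in DGY1741 (log2 ratio -0.34, adjusted p = 0.0324). Over DGY1735 its log2 ratio was -0.01 in DGY1741 and -0.32 in DGY1743 (adjusted p = 0.101). RAP1 was high in DGY1741 alone, at 137 and 110.0 CPM in DGY1743, 216 and 212 CPM in DGY1741, 109 and 122 CPM in DGY1735 and 146 and 124 CPM in DGY1726 (log2 ratio 0.66 ± 0.12, adjusted p = 1.49e-04 in DGY1741 over DGY1726).

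The promoters of the 4 genes that fell in the strains isolated later were read from the R64 genome (RefSeq), to see whether they share the core of the Gcr1 site. The letters CTTCC were searched on both strands in the 500 bases before the start codon. At least 1 match was found for 9 of 10 members, against 65.6% of 6567 such windows in the genome, and at least 2 for 8 members, against 29.9%. PGK1 had 4 matches, CDC19 3 and FBA1 1, and TDH3 had none. Matches were thus found in genes of both patterns. The windows from 500 to 201 bases before the start codon follow, 5′ to 3′ on the coding strand, with matches on either strand in capitals.
TDH1 (chrX:337771-338070, plus strand): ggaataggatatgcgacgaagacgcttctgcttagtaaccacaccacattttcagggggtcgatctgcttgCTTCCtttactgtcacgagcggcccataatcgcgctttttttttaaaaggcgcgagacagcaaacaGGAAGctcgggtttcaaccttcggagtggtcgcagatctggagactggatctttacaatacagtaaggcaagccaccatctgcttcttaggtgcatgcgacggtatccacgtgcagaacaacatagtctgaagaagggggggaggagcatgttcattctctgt
TDH2 (chrX:454882-455181, minus strand): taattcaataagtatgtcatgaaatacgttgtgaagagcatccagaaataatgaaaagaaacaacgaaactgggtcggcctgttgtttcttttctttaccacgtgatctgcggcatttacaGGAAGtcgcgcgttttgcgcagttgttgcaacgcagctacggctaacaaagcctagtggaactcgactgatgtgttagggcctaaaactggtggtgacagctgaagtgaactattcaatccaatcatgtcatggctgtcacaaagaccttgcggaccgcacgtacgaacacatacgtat
TDH3 (chrVII:884011-884310, minus strand): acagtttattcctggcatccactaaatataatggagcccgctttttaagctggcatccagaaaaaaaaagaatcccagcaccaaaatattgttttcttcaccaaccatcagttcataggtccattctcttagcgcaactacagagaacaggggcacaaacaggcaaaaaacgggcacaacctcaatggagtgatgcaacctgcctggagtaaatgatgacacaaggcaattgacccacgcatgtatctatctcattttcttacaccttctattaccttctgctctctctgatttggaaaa
PGK1 (chrIII:137246-137545, plus strand): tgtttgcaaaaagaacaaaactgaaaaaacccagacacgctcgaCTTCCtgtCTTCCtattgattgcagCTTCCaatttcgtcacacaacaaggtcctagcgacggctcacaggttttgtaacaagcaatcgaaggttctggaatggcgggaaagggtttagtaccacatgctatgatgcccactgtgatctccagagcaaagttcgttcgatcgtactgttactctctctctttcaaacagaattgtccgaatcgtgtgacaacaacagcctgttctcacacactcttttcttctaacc

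A match of these letters is a description of the sequence and not a measured binding site, and the sequences are those of the reference genome and not of the evolved strains. Besides the matches printed, TDH2 has 1 and PGK1 has 1 nearer to the start codon, at 136 and 33 bases before it.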

How the data were processed

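RNA-seq counts of 8 libraries, 2 replicate cultures for each of 4 strains, were analysed, with groups and replicate numbers taken from the sample titles. Reads of 50 bases (single-end) were aligned by the authors to the R64 genome with STAR, and they counted strand-specific overlaps per annotated feature with bedtools, and the deposited values are raw read counts without normalization. The labels describe polyadenylated RNA, whereas the methods describe no such selection.

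Gene rows of protein-coding genes other than transposable elements with a mean of at least 100 counts were tested (5527 of 6600) by edgeR's quasi-likelihood test (version 4.0.16, under R 4.3.3) with TMM factors. P-values were adjusted over all tested genes by the Benjamini-Hochberg method. All 8 libraries entered the test among strains and the contrast of later and earlier isolates, and 4 libraries each pair. Log2 ratios are fitted values with their standard error (SE). DESeq2 1.42.0 was an alternative. Shares and isoform ratios were tested with exact permutation tests, two-sided by construction. The edgeR code was tested on simulated data.

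Upstream and coding sequences were read from the RefSeq R64 genome, whose 17 chromosome lengths match those of the tables. The genes named are the 10 members, up to 4 genes of each pathway list by the smallest p among strains, and the genes with the highest Pearson correlation. The members and lists were chosen with earlier results of these data known. The chi-square statistic between replicates was 16.1 to 55.8 per degree of freedom, so that no library was counted as a repeat of another.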

Additional observations from a re-analysis of the deposited data

How the results depend on the processing

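The counts of members past the threshold moved with the tool and the threshold. DESeq2 called 1 member in DGY1735 over DGY1726 (3.46% of all tested genes, against 1.76% in edgeR), 5 in DGY1741 over DGY1735 (35.3%, against 38.5%) and 7 in DGY1743 over DGY1735 (19.6%, against 16.1%). It called 6 in DGY1741 over DGY1726 (39.8%, against 43.2%), 7 in DGY1743 over DGY1726 (25.3%, against 27.2%), 7 in DGY1743 over DGY1741 (21.5%, against 24.6%), 6 between later and earlier isolates (46.7%, against 47.2%) and 10 among the 4 strains (50.9%, against 47.3%). At an adjusted p under 0.01, 4 members differed among the 4 strains, and 1, 1 and 2 in DGY1741 over DGY1735, DGY1743 over DGY1735 and DGY1743 over DGY1741. The share of all tested genes called is not given at this threshold, with nuclear genes alone or with libraries left out. Member counts under those settings therefore have no background beside them. The cause of these changes was not tested.

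With single libraries left out, the count ranged from 4 to 9 among the 4 strains, from 3 to 8 in DGY1743 over DGY1726, from 0 to 1 in DGY1735 over DGY1726, from 1 to 4 in DGY1741 over DGY1735, from 0 to 3 in DGY1743 over DGY1735, and from 0 to 8 in DGY1743 over DGY1741. It stayed at 4 in DGY1741 over DGY1726 and ranged from 4 to 5 between later and earlier isolates. The difference between DGY1726 and DGY1743 in the share of counts ranged from 1.05 to 1.33 percentage points, with p = 0.0667 (exact permutation test) without DGY1741 replicate 1. The spread of the TDH2 over TDH3 log2 ratio, DGY1741 minus DGY1743, ranged from 0.21 to 0.23.

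Replicate numbers were not treated as pairs in the main fits. The correlation of deviations between same-numbered libraries of different strains ranged from -0.25 (DGY1735 and DGY1743) to 0.40 (DGY1726 and DGY1741). In the other pairs with DGY1726 it was 0.27 (DGY1735) and 0.21 (DGY1743). Whether same-numbered cultures share a deviation was not tested further. With the replicate number as a block, 1 member passed in DGY1735 over DGY1726 (TDH1), against 4.63% of all tested genes. In DGY1743 over DGY1741, 2 of 10 passed (PFK2 and TDH2), which is near the 21.8% of all tested genes. In DGY1743 over DGY1735, 3 passed (without PGK1, adjusted p = 0.0810), against 16.3%. In DGY1741 over DGY1726, 6 passed (PFK1 and TPI1 in addition, both higher, adjusted p = 0.0328 and 0.0252). Among the 4 strains 7 passed, against 50.9%. In DGY1741 over DGY1726 the block raised the share of all tested genes called to 57.9%, against 43.2%, so that 6 of 10 members was near that share. The counts of the other comparisons were the same with the block. The shares of all tested genes there were 35.3% in DGY1743 over DGY1726, 42.7% in DGY1741 over DGY1735 and 48.7% between later and earlier isolates.

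Over all single member values recomputed, 902 of 1020 stayed on the same side of the threshold, 76 lost and 42 gained the threshold, and no called value changed sign. Direction was not compared for values that passed in neither fit, and some of these changed sign. With single libraries left out, CDC19 in DGY1735 over DGY1726 had log2 ratios from -0.12 to 0.03. Only 2 cultures per strain limit what these tests can detect, and the isoform values are limited by shared reads.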
